A study of Mus musculus with 2 samples.

Results

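Chemokine receptors are the sensors by which blood cells stay in the marrow, leave it and find their way through tissues. The 8 receptors described here are Cxcr4, Cxcr2, Ccr2, Cx3cr1, Cxcr3, Cxcr6, Ccr7 and Ccr9. They were taken by gene symbol from the 31053 genes of the count matrices, and all 8 symbols were present in both libraries. Another 16 chemokine receptor genes were set beside them as a list.

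The data are single-cell RNA counts from the marrow of C57BL/6J mice that were aged. One group had received gut microbiota from young donors (FMT-young) and the other gut microbiota from aged donors (FMT-aged), and each group is 1 library. The recipients of both groups were aged, and the labels give no further age, no number of animals and no untransplanted control. Sorted whole marrow, lineage-negative cells and lineage-negative cKit-positive cells had been mixed in parts of 1, 1 and 4 before capture (Chromium 3′ v3 chemistry of 10x Genomics), so shares of cell classes reflect that mix and not the marrow itself. With 1 library per group there is no replicate check. No test was made, differences are between 2 libraries, and every 95% interval below covers counting error only.

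The FMT-young library kept 10793 cells with a median of 10775 unique molecular identifiers (UMIs, counted RNA molecules), and the FMT-aged library kept 10320 cells with a median of 11181.5. Barcodes over the mitochondrial limit were 13.9% of those with at least 1000 UMIs in FMT-young and 18.7% in FMT-aged. The libraries shared 32 cell barcodes, none of them in the same class. Clusters with at least 90% of their cells from 1 library held 12.3% of FMT-young and 5.35% of FMT-aged cells, and they were left out of the class levels. Unnamed clusters held a further 12.4% and 7.51%. The summed level of 8 immediate early genes (Fos, Jun, Junb, Egr1, Nr4a1, Klf2, Ier2 and Dusp1), which respond within minutes to stimulation and to handling of cells, was higher in FMT-young in each of the 19 classes. The share of 3 genes linked to ribosomal RNA reads (Lars2, Gm42418 and AY036118) was higher in FMT-aged in each of the 19 classes, for example 0.196% and 0.471% in stem and multipotent progenitors. The part of either sign in the receptor differences was not tested.

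Clusters were named from marker lists that hold no chemokine receptor, and each class name below stands for "like" that cell. Of 19 classes described, 16 had at least 50 cells in each library. Macrophages (110 and 38 cells), eosinophils (44 and 44 cells) and B cell progenitors (15 and 60 cells) fell short and are given only as levels. No class of erythroid or stromal cells reached the minimum. A cluster of 67 FMT-young and 74 FMT-aged cells met the naming rule with 6 of 10 markers listed for group 2 innate lymphoid cells. The defining cytokine genes Il5 and Il13 were at 0 UMIs. Of the NK cell markers, Klrb1c (50.7% and 63.5% of cells) and Ncr1 (49.3% and 67.6%) were frequent, while Klra4 was at 0. The leading genes of the cluster included Klrb1b, Ncr1, Rora and Il7r, and it is called the Rora and Il7r cluster.

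All of these receptors couple to inhibitory G proteins and turn a chemokine gradient into directed movement, after which kinases and arrestins silence them. In marrow, Cxcr4 on blood-forming cells and neutrophils binds Cxcl12 from stromal cells and holds them in place, while Cxcr2, the receptor for Cxcl1 and Cxcl2, opposes it and promotes neutrophil release. Ccr2 binds Ccl2 and Ccl7 and is needed for monocytes to leave the marrow, and Cx3cr1 binds Cx3cl1 and marks the monocyte lineage. Cxcr3, Cxcr6, Ccr7 and Ccr9 guide lymphocytes and dendritic cells by binding Cxcl9 and Cxcl10, Cxcl16, Ccl19 and Ccl21, and Ccl25 respectively.

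On the GRCm38 build with GENCODE vM21 annotation, 4 of the 8 genes lie on chromosome 9. Ccr9 (chr9:123678439-123784330, plus strand), Cxcr6 (chr9:123806475-123811760, plus strand) and Ccr2 (chr9:124101950-124113557, plus strand) sit within 435119 bases of each other, among Xcr1, Ccr1, Ccr1l1 and Ccr3. Cx3cr1 (chr9:119901616-120069879, minus strand) lies apart from them on the same chromosome. Cxcr2 (chr1:74153989-74161246, plus strand) and Cxcr4 (chr1:128588199-128592293, minus strand) are on chromosome 1, Ccr7 (chr11:99144196-99155077, minus strand) is on chromosome 11 and Cxcr3 (chrX:101731535-101734269, minus strand) is on the X chromosome. Cxcr6 lies inside the span of Fyco1 on the opposite strand, with no shared exon bases. Ccr9 shares exon bases on its own strand with Gm17200, which had 9 UMIs in FMT-young and 5 in FMT-aged.

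Upstream sequence is shown for both receptors that were highest in mature neutrophils and for both that were highest in T cells or the Rora and Il7r cluster, since each pair was high in related cells. The bases come from RefSeq promoter windows on GRCm38.p6, trimmed to those before the first annotated exon and written 5′ to 3′ on the gene's strand. Capitals mark a searched motif. A window was found for 7 of the 8 genes. The windows cover chr1:128592300-128592549 for Cxcr4, chr1:74153744-74153988 for Cxcr2, chrX:101734270-101734397 for Cxcr3 and chr9:123806227-123806474 for Cxcr6.
Cxcr4: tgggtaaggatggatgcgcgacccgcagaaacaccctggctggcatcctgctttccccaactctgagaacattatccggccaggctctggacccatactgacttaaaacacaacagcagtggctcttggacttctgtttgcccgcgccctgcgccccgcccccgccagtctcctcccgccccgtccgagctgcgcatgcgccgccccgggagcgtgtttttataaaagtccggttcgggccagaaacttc
Cxcr2: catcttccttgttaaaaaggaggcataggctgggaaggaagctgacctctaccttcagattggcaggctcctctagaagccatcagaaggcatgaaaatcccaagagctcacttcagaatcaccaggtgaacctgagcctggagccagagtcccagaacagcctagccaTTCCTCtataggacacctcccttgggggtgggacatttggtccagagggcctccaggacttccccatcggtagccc
Cxcr3: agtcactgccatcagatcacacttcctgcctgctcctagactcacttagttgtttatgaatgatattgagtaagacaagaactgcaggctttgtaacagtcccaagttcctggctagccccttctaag
Cxcr6: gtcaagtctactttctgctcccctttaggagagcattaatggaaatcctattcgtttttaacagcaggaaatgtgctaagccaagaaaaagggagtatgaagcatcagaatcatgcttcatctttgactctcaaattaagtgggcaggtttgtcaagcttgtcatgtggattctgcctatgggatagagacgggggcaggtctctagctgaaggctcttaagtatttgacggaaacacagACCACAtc
The motifs searched on both strands were GAGGAA (PU.1 and other Ets factors), TGTGGT (Runx factors), GGTGTGA (T-box factors), TTGCNNAA (C/EBP factors) and TGANTCA (AP-1). Cxcr2 held 1 copy of GAGGAA on the opposite strand, written TTCCTC, 70 bases before the end of its window, and 22.7% of 32817 windows of that length held this motif. Cxcr6 held 1 copy of TGTGGT on the opposite strand, written ACCACA, 2 bases before the end, and 14.0% of windows of its length did. Neither copy overlapped another motif. None of the searched letters were present in the Cxcr4 and Cxcr3 windows. The matches are a description and mark no tested site.

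Each receptor had the same highest class in FMT-young and FMT-aged among the 16 classes compared. A level is the summed UMIs of a gene per 1000000 UMIs of the class (CPM). Cxcr4 was the broadest, at 10 CPM or more in both libraries in 19 of 19 classes, followed by Ccr2 in 10 and Cx3cr1 in 8. Cxcr2 and Cxcr3 reached that level in 5 classes each, Ccr9 in 4, and Cxcr6 and Ccr7 in 2. RNA outside cells, read from barcodes under 100 UMIs, was estimated to make up 4.28% of FMT-young and 2.05% of FMT-aged counts. At that share, outside RNA would add at most 3.25 CPM to a class, for Cxcr4 in FMT-young. The share is a median over the compared classes outside the B lineage, read from immunoglobulin UMIs, so some classes may hold more. Immunoglobulin genes made up 2.65% of UMIs in FMT-young basophils and mast cells and 0.148% in FMT-young stem and multipotent progenitors.

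**Figure D1:**
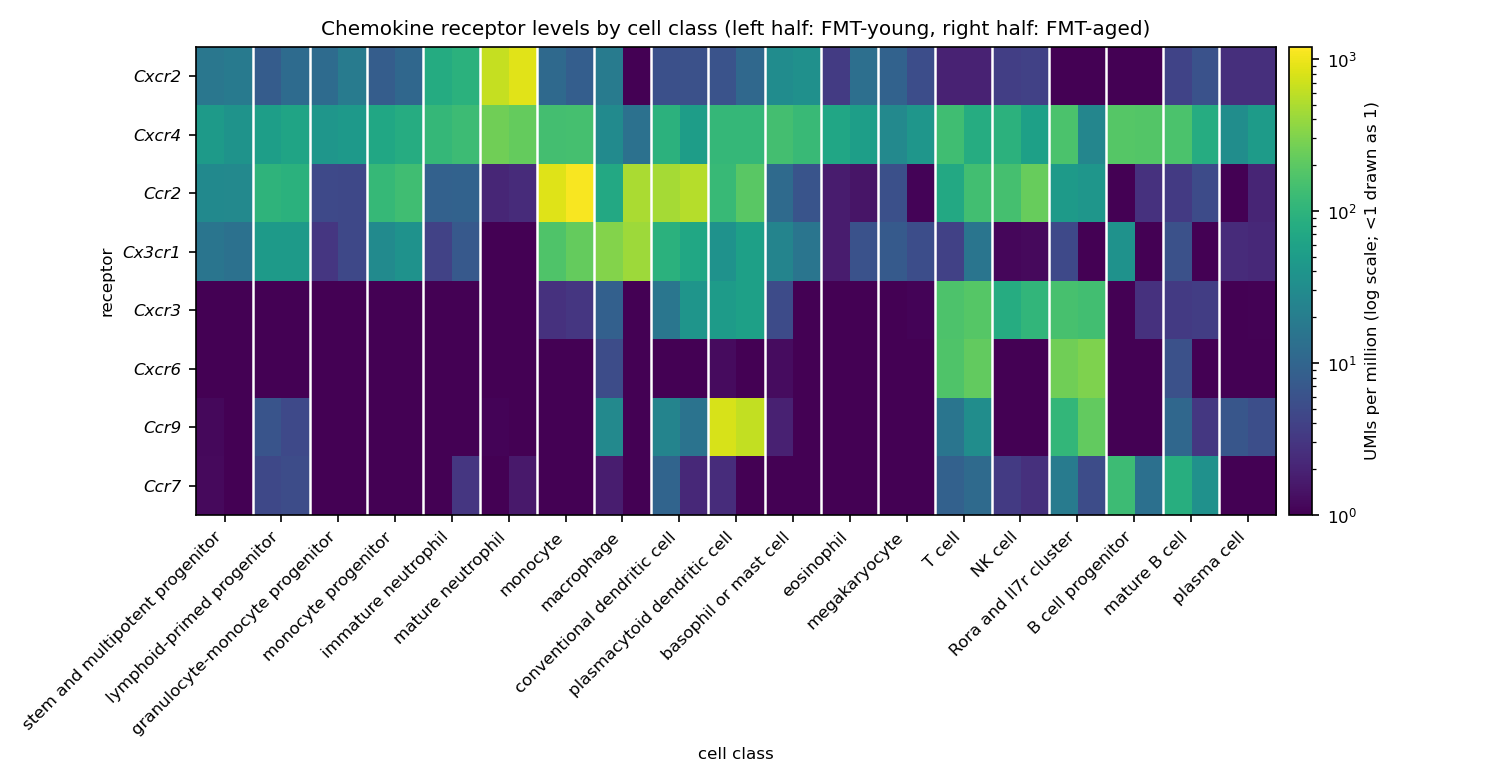
Heat map of the 8 receptors (rows) in 19 cell classes (columns), coloured by CPM on a log scale, with FMT-young on the left and FMT-aged on the right of each cell and values under 1 drawn as 1. Cxcr4 is spread over all classes, while Cxcr6 is high in T cells and the Rora and Il7r cluster and near 0 elsewhere.

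Cxcr2 marked the end of the neutrophil line. In mature neutrophils its level was 650 CPM in FMT-young (95% exact Poisson interval 614 to 687) and 870 in FMT-aged (819 to 924). The mean of the libraries, 759.9 CPM, was 388 with coarser clustering and 454 with at most 5% mitochondrial UMIs. The levels first given were 8.82 times the immature neutrophil level on average, where Cxcr2 stood at 78.5 and 93.7 CPM, and the ranges of those neighbouring classes did not overlap. A Cxcr2 UMI was seen in 82.8% of FMT-young mature neutrophils (95% exact Clopper-Pearson interval 79.0 to 86.1) and 89.7% of FMT-aged ones (86.1 to 92.7), at median depths of 3596 and 2942 UMIs. In T cells, taken as cells that should lack this receptor, the share was 0.556% and 0.544% at 2478 and 2438 UMIs. Basophils and mast cells followed at 31.2 and 34.99 CPM. Stem and multipotent progenitors, at 16.7 and 18.8 CPM, overlapped granulocyte-monocyte progenitors, at 12.0 and 19.2 CPM. All other classes had a mean of 10.0 CPM or less, and the Rora and Il7r cluster and B cell progenitors had none.

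Cxcr4, the marrow retention receptor, was also highest in mature neutrophils, at 257 CPM in FMT-young (235 to 281) and 224 in FMT-aged (198 to 252). B cell progenitors followed at 184 and 182 CPM, though from only 10 and 66 UMIs. Monocytes, with 146 and 148 CPM, came next and nearly coincided between libraries. Basophils and mast cells, immature neutrophils, mature B cells, plasmacytoid dendritic cells, T cells and the Rora and Il7r cluster formed a run of neighbours whose ranges overlapped, with means from 94.6 to 133 CPM. Stem and multipotent progenitors stood low in this order, at 47.4 and 38.7 CPM, and overlapped granulocyte-monocyte progenitors at 41.8 and 45.9. Plasma cells, megakaryocytes and macrophages were lowest, with a mean of 21.9 CPM in macrophages.

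Along 7 clusters of the neutrophil line both receptors were higher in the immature and mature clusters than in the progenitor clusters, by steps of different size. The 3 progenitor clusters had Cxcr2 at 10.3 to 13.2 CPM in FMT-young and 16.01 to 24.1 in FMT-aged, and Cxcr4 at 40.5 to 43.4 and 42.7 to 50.8. The immature cluster led by Camp and Ngp had Cxcr2 at 43.2 and 49.8 CPM and Cxcr4 at 98.7 and 124. Cxcr2 then stood at 171 and 191 CPM in the immature cluster with Ltf and Ly6g, at 336 and 381 in the mature cluster led by stefin genes such as Stfa2, and at 824 and 995 in the mature cluster with Retnlg and Il1b. The matching Cxcr4 values were 168 and 165, 207 and 159, and 285 and 240 CPM. Another immature cluster (245 and 144 cells), led by stefin genes with Rpgrip1 and shallow at medians of 3573 and 3123 UMIs, was not placed in this line. It had Cxcr2 at 20.1 and 29.2 CPM and Cxcr4 at 61.3 and 52.1, below both other immature clusters. The unnamed clusters were not placed either. The deeper of them (569 and 371 cells, medians of 23318 and 23734 UMIs) was led by Fcnb. The shallower (766 and 404 cells) had Elane and Prtn3 among its leading genes. Cxcr2 was higher in FMT-aged at each of the 7 clusters of the line, while Cxcr4 was higher in FMT-aged in the first 4 and higher in FMT-young in the last 3. In single mature neutrophils, 210 of 459 FMT-young and 158 of 360 FMT-aged cells held a UMI of both receptors. Of cells with Cxcr4, 81.7% and 90.8% also had Cxcr2, close to the share of all mature neutrophils with Cxcr2 given above.

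**Figure D2:**
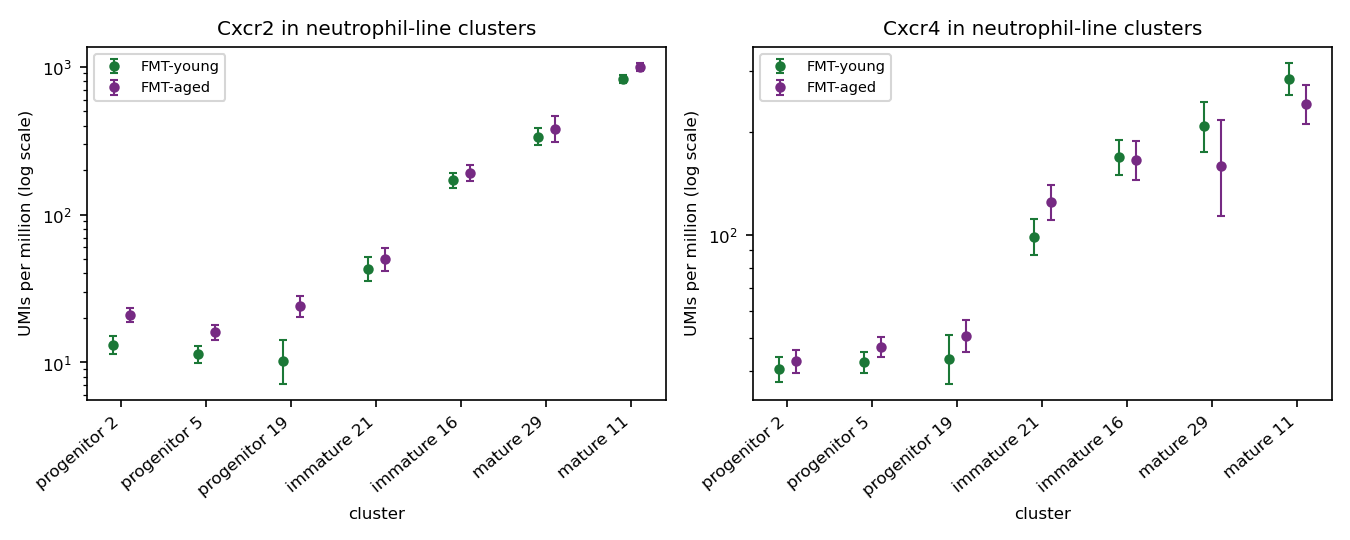
Cxcr2 and Cxcr4 level in 7 clusters of the neutrophil line, from granulocyte-monocyte progenitors on the left to mature neutrophils on the right, in CPM on a log axis with 95% counting intervals. In FMT-young, Cxcr2 is at 13.2 in the first cluster drawn and 824 in the last, and Cxcr4 at 40.5 and 285. The numbers on the axis only name the clusters. Not drawn are 1 shallow immature cluster and the unnamed clusters, which had Fcnb or Elane among their leading genes.

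Ccr2, the receptor that lets monocytes leave the marrow, was highest in monocytes at 855 CPM in FMT-young (825 to 885) and 1120 in FMT-aged (1079 to 1161). With classes by marker score the mean of the libraries was 518 CPM in place of 987. A Ccr2 UMI was present in 85.9% (82.1 to 89.1) and 87.9% (83.6 to 91.4) of monocytes at median depths of 7787 and 7393 UMIs. Plasma cells, taken as cells that should lack Ccr2, had a UMI in 1.09% and 3.29% of cells at 15235 and 14830 UMIs. Conventional dendritic cells were next with 459 and 545 CPM, and their range overlapped that of macrophages, where 71.9 and 488 CPM came from few cells. NK cells (148 and 230 CPM), plasmacytoid dendritic cells, monocyte progenitors (117 and 135 CPM), T cells and lymphoid-primed progenitors (99.6 and 93.0 CPM) followed as overlapping neighbours. Granulocyte-monocyte progenitors had 4.82 and 4.71 CPM, immature neutrophils 9.01 and 9.39 and mature neutrophils 2.14 and 2.42, so Ccr2 was low in these classes.

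Cx3cr1 was highest in macrophages, at 324 and 425 CPM, and among the classes compared in monocytes at 172 (158 to 185) and 223 (205 to 241). The monocyte mean of 197 CPM was 117 with classes by marker score and 316 as a mean over cells. The share of monocytes with a UMI was 58.8% (53.8 to 63.7) and 68.4% (62.7 to 73.6), beside 0.484% and 0.348% of NK cells at 3946.5 and 3622 UMIs. Conventional dendritic cells had 91.7 and 67.9 CPM and lymphoid-primed progenitors 47.3 and 48.0, which overlapped plasmacytoid dendritic cells. Monocyte progenitors had 29.9 and 36.7 CPM. Mature neutrophils had 0 UMIs in FMT-young, which allows up to 1.61 CPM at a floor of 3 counts, and 1 UMI in FMT-aged.

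The 2 monocyte clusters divided these receptors in opposite ways. In the cluster led by Fn1 (341 and 257 cells), the pattern of classical monocytes, Ccr2 was at 900.3 and 1150.5 CPM and Cx3cr1 at 146 and 191. In the cluster with Ace and Adgre4 (62 and 40 cells), genes of patrolling monocytes, Ccr2 was at 118 and 263 CPM and Cx3cr1 at 579 and 1097. The Ccr2 ranges of these clusters did not overlap, nor did the Cx3cr1 ranges. Cxcr4 in the Ace and Adgre4 cluster was 278 and 252 CPM. In single monocytes, 202 of 403 and 173 of 297 cells held a UMI of both Ccr2 and Cx3cr1.

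Cxcr3, a receptor of activated T and NK cells, was highest in T cells at 167 CPM (142 to 194) in FMT-young and 185 (164 to 207) in FMT-aged. The Rora and Il7r cluster followed with 154 and 140 CPM, then NK cells with 80.7 and 106 and plasmacytoid dendritic cells with 49.0 and 55.5. Conventional dendritic cells had 16.4 and 40.5 CPM, and the remaining classes had a mean of 4.38 or less. A Cxcr3 UMI was found in 33.3% (28.5 to 38.5) and 35.9% (31.9 to 40.1) of T cells, against 0.227% and 0.601% of granulocyte-monocyte progenitors. T cells had median depths of 2478 and 2438 UMIs, and those progenitors 26644 and 28954.

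Cxcr6, which marks tissue-resident lymphocytes, was the most restricted of the 8. The Rora and Il7r cluster had 259 CPM (195 to 338) in FMT-young and 307 (233 to 395) in FMT-aged, from 54 and 59 UMIs, and T cells had 172 (147 to 199) and 221 (198 to 246). Classes by marker score hold no such cluster, only the cells that score highest on the group 2 innate lymphoid markers, a differently drawn set. Their mean level was 86.8 CPM, beside 283 in the cluster. Their log2 ratio of FMT-young to FMT-aged was −1.65, beside −0.24. T cells supplied 75.9% of the Cxcr6 UMIs of all kept cells. The T cell mean was 58.7 times that of the class next in order, mature B cells, whose 7 FMT-young UMIs came from 1 cell. NK cells had 2 UMIs in each library (0.748 and 0.599 CPM), although they were among the high classes for Cxcr3. In 6 classes there was no Cxcr6 UMI in either library.

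Among T cells, the cluster with Gzmk and Cd8a (241 and 397 cells) had Cxcr6 at 229 and 283 CPM. The cluster with Cd4, Foxp3 and Izumo1r (119 and 154 cells), genes of regulatory and helper T cells, had 27.7 and 29.3. Cxcr3 differed less between them, with 171 and 207 CPM in the first and 156 and 115 in the second. Ccr2 was 98.8 and 175 CPM in the first and 6.9 and 32.0 in the second. Both Cxcr3 and Cxcr6 were seen in 37 of 360 FMT-young and 73 of 551 FMT-aged T cells.

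Ccr9, the gut and thymus homing receptor that binds Ccl25, was highest in plasmacytoid dendritic cells. The level was 776 CPM (717 to 839) in FMT-young and 625 (534 to 727) in FMT-aged, and the mean of 700.5 CPM was 282 with classes by marker score. A UMI was found in 80.6% (72.7 to 87.0) and 72.0% (57.5 to 83.8) of these cells, and after thinning every cell to 1000 UMIs in 43.4% and 46.0%. Granulocyte-monocyte progenitors, taken as cells that should lack it, had a UMI in 0.378% and 0.300% of cells. The class held 129 FMT-young and 50 FMT-aged cells, and 53.9% of the Ccr9 UMIs of all kept cells. The Rora and Il7r cluster came next with 110 and 218 CPM from 23 and 42 UMIs. T cells had 15.9 and 32.6 CPM, where the 16 FMT-young UMIs came from 3 cells. The ranges of T cells and conventional dendritic cells overlapped.

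Within the Rora and Il7r cluster, both Ccr9 and Cxcr6 were seen in 2 of 67 FMT-young and 3 of 74 FMT-aged cells, while Cxcr6 was seen in 43.3% (31.2 to 56.0) and 43.2% (31.8 to 55.3). Cells were then parted by whether they had a UMI of Klrb1c, the NK cell receptor gene for NK1.1, a split chosen after these values had been seen. The 34 and 47 cells with Klrb1c had no Ccr9 UMI in either library, with upper limits of 32.8 and 27.0 CPM. The 33 and 27 cells without it had 240 and 755 CPM, from 23 and 42 UMIs in 8 and 13 cells. Cxcr6 did not divide this way, at 293 and 329 CPM with Klrb1c and 219 and 252 without. Cxcr3 was 222 and 175 CPM with Klrb1c and 73.1 and 53.9 without.

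**Figure D3:**
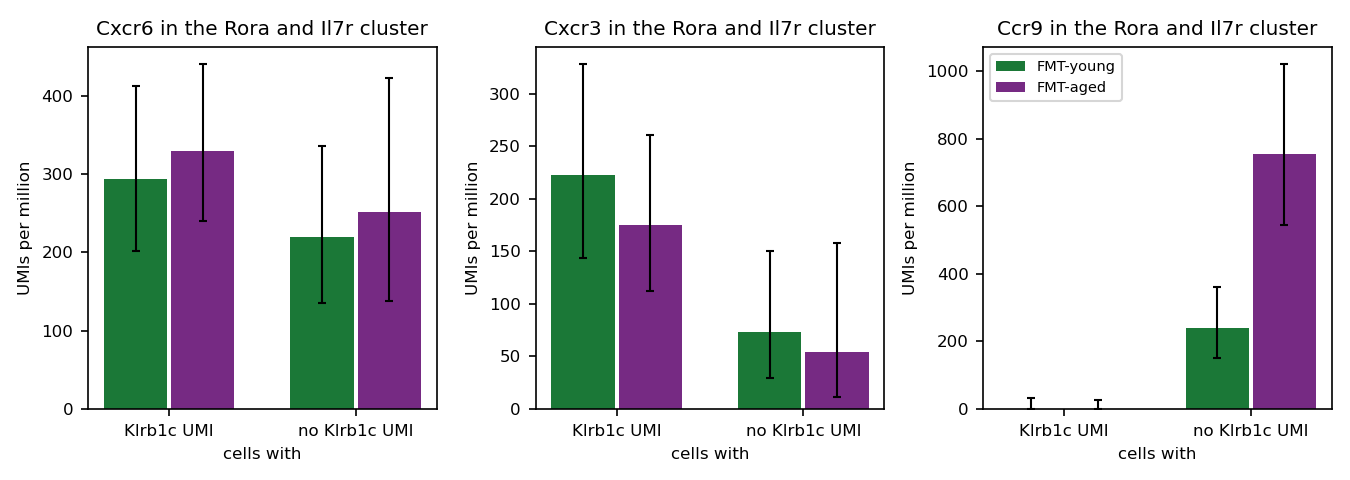
Cxcr6, Cxcr3 and Ccr9 level in cells of the Rora and Il7r cluster with and without a Klrb1c UMI, in CPM with 95% counting intervals, for FMT-young and FMT-aged. Ccr9 UMIs are found only in the cells without Klrb1c, while Cxcr6 is present in both sets.

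Ccr7, which guides B cells, T cells and mature dendritic cells into lymph nodes, was highest in mature B cells among the classes compared. It stood at 85.8 CPM (70.1 to 104) in FMT-young and 36.5 (28.97 to 45.5) in FMT-aged, and a UMI was seen in 20.1% (15.8 to 25.004) and 12.8% (9.80 to 16.2) of these cells. B cell progenitors overlapped them with 129 and 13.8 CPM, from 7 and 5 UMIs. The Rora and Il7r cluster, T cells (8.93 and 11.7 CPM) and conventional dendritic cells (9.73 and 2.25 CPM) were lower, and 5 classes had none in either library.

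The cells that carried most of the UMIs were not always those with the highest level, since Kit-positive progenitors dominate the mix. Monocyte progenitors supplied 28.1% of Cxcr4, 38.6% of Ccr2 and 38.2% of Cx3cr1 UMIs of all kept cells, unnamed and left-out clusters included. Mature neutrophils supplied 34.4% of Cxcr2, NK cells 38.2% and T cells 30.3% of Cxcr3, and mature B cells 41.9% of Ccr7. In monocytes 2.73% of FMT-young and 1.35% of FMT-aged cells had no UMI of any of the 8 receptors. In megakaryocytes that share was 70.2% and 69.2%, and in plasma cells 53.8% and 49.3%.

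Genes whose class pattern was most like each receptor were ranked by the lower of the 2 libraries' Pearson correlations of log2(CPM + 10) over 16 classes, among 13109 genes. The classes of a library share its depth and free RNA, and the values are descriptions. Cxcr2 was closest to E230014E18Rik (0.95), Mmp25 and Tinagl1 (both 0.94). Ccr2 was closest to Tmem109 (0.89), and Cx3cr1 to Ptpro, Plxnb2 and Cln8 (each 0.90). For Cxcr3, genes with a like pattern included Kbtbd11 (0.94) and the NK receptor gene Klrd1 (0.93). Cxcr6 followed the T cell genes Tnfrsf25 (0.98), Camk4 and Trat1 (both 0.97). Ccr7 was closest to the B cell genes Dtx1 (0.89), Zbtb32 (0.88) and Cxcr5 (0.87), and Ccr9 to Hs3st1 (0.90). These patterns are over whole classes, and Zbtb32 was a leading gene of the mature B cell cluster with the lower Ccr7. For Cxcr4, the broadest receptor, the closest were Btbd10 (0.81), Slc35a5 and Arpc5 (both 0.74).

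The comparison of FMT-young with FMT-aged asks whether receptor levels within a class differed with the donor microbiota's age. Of 128 receptor and class pairs, 43 had at least 100 UMIs over both libraries together. Past 1.5-fold, 6 pairs (14.0%) were higher in FMT-young, where 5.21% of all gene and class pairs with that many UMIs were. A further 7 pairs (16.3%) were lower in FMT-young, where 2.9% of all pairs were. The interval of the ratio lay above 0 on the log2 scale in 9 pairs, below 0 in 20, and spanned 0 in 14, and the median log2 ratio of FMT-young to FMT-aged was −0.16. Median ratios of all genes in a class lay between −0.15 and 0.05 in 15 classes and at 0.33 in plasma cells.

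**Figure D4:**
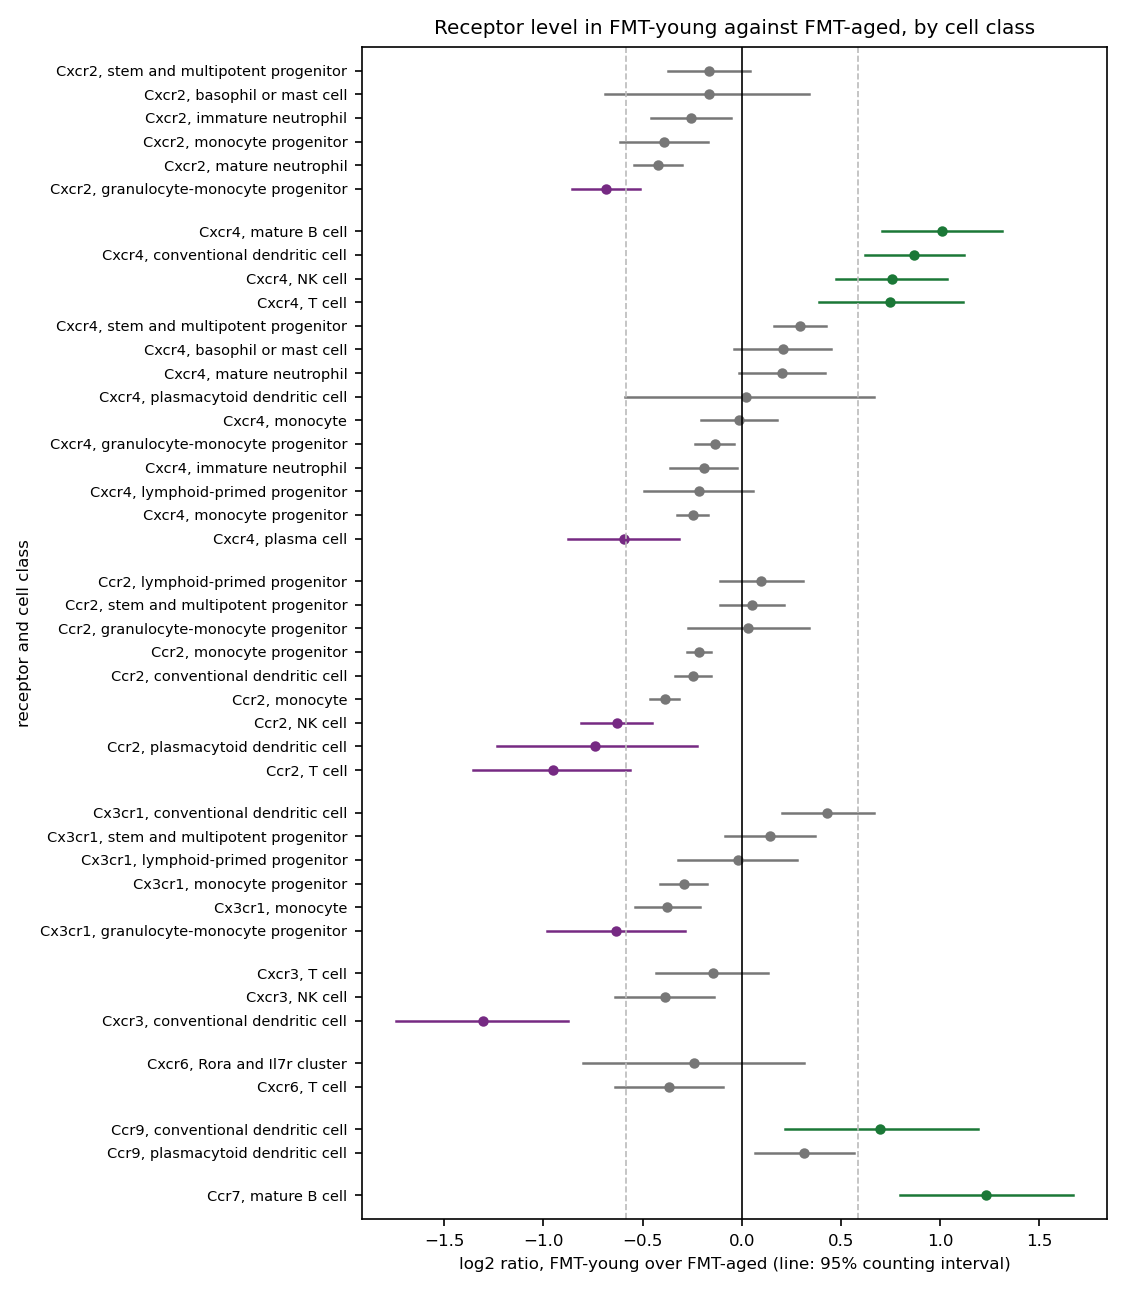
Log2 ratio of FMT-young to FMT-aged receptor levels in the 43 pairs with at least 100 UMIs, with 95% counting intervals and lines at 1.5-fold. Cxcr4 lies to the higher side in mature B, NK, T and conventional dendritic cells, and Ccr2 to the lower side in T, NK and plasmacytoid dendritic cells.

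Of the 6 higher pairs, 4 were Cxcr4. In mature B cells it was 162 CPM in FMT-young and 80.4 in FMT-aged, a log2 ratio of 1.01 (95% exact conditional binomial interval 0.71 to 1.31). In conventional dendritic cells it was 94.98 and 51.9 CPM (0.87, 0.62 to 1.12), in NK cells 94.6 and 56.0 (0.76, 0.48 to 1.04) and in T cells 135 and 80.2 (0.75, 0.39 to 1.11). Cxcr4 was not higher everywhere. Monocyte progenitors had 67.9 and 80.7 CPM (−0.25, −0.33 to −0.17), and in monocytes the ratio was −0.02 (−0.21 to 0.18). The immediate early genes summed to 8850 CPM in FMT-young and 3037 in FMT-aged mature B cells, 7918 and 4517 in conventional dendritic cells, 6398 and 4649 in NK cells, and 7252 and 3611 in T cells. In monocyte progenitors they summed to 4230 and 2251 CPM, and in monocytes to 9795 and 4498. The part of these genes in the Cxcr4 ratios was not tested.

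Ccr2 leaned the other way in lymphocytes. It was 72.4 CPM in FMT-young and 140 in FMT-aged T cells (−0.95, −1.36 to −0.56), and 148 and 230 in NK cells (−0.63, −0.81 to −0.45). In plasmacytoid dendritic cells it was 118 and 196 CPM from 96 and 53 UMIs (−0.74, −1.24 to −0.23), and keeping the clusters of mostly 1 library moved that ratio to −0.26. Monocytes, the main carriers, differed by less than 1.5-fold (−0.39, −0.46 to −0.32). So did mature neutrophils for Cxcr2 (−0.42, −0.54 to −0.30) and monocytes for Cx3cr1 (−0.38, −0.54 to −0.21), all lower in FMT-young.

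In granulocyte-monocyte progenitors 2 receptors of later myeloid cells were lower in FMT-young. Cxcr2 was 12.0 and 19.2 CPM from 437 and 763 UMIs (−0.68, −0.86 to −0.51). Cx3cr1 was 3.04 and 4.71 CPM from 111 and 187 UMIs (−0.63, −0.98 to −0.29), and it passed 1.5-fold in 8 of 14 alternative settings, with −0.18 at a coarser clustering. Ccr2 in the same class was 4.82 and 4.71 CPM (0.03, −0.27 to 0.34).

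Some class ratios differed from the ratios within the clusters that make up the class. Ccr7 in mature B cells had a ratio of 1.23 (0.80 to 1.67). The cluster with Fcer2a, a gene of follicular B cells, held 59.4% of the class in FMT-young and 29.98% in FMT-aged, and its Ccr7 level was 182 and 157 CPM (0.21, −0.29 to 0.72). The other, with Zbtb32, had 21.97 and 13.6 CPM (0.69, −0.31 to 1.66), so within each cluster the interval included 0. Cxcr4 differed within both, at 256 and 163 CPM (0.65, 0.19 to 1.13) and at 98.9 and 64.7 CPM (0.61, 0.17 to 1.05).

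Conventional dendritic cells were divided for Cxcr3 too, with a class ratio of −1.30 (−1.74 to −0.88). The cluster with Clec9a and Cadm1, genes of type 1 dendritic cells, made up 13.2% of the class in FMT-young and 31.3% in FMT-aged. Its Cxcr3 level was 68.8 and 86.4 CPM (−0.33, −0.88 to 0.20), while the larger cluster had 7.22 and 17.3 CPM (−1.26, −2.04 to −0.52), close to the class ratio. Ccr9 in this class was 24.3 and 14.98 CPM (0.70, 0.22 to 1.19). Without removal of doublets that ratio was 0.13. In T cells Cxcr4 was 128 and 58.7 CPM (1.12) in the Gzmk and Cd8a cluster, and 152 and 147 CPM (0.05) in the Cd4 and Foxp3 cluster. The difference between these ratios was not tested.

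**Figure D5:**
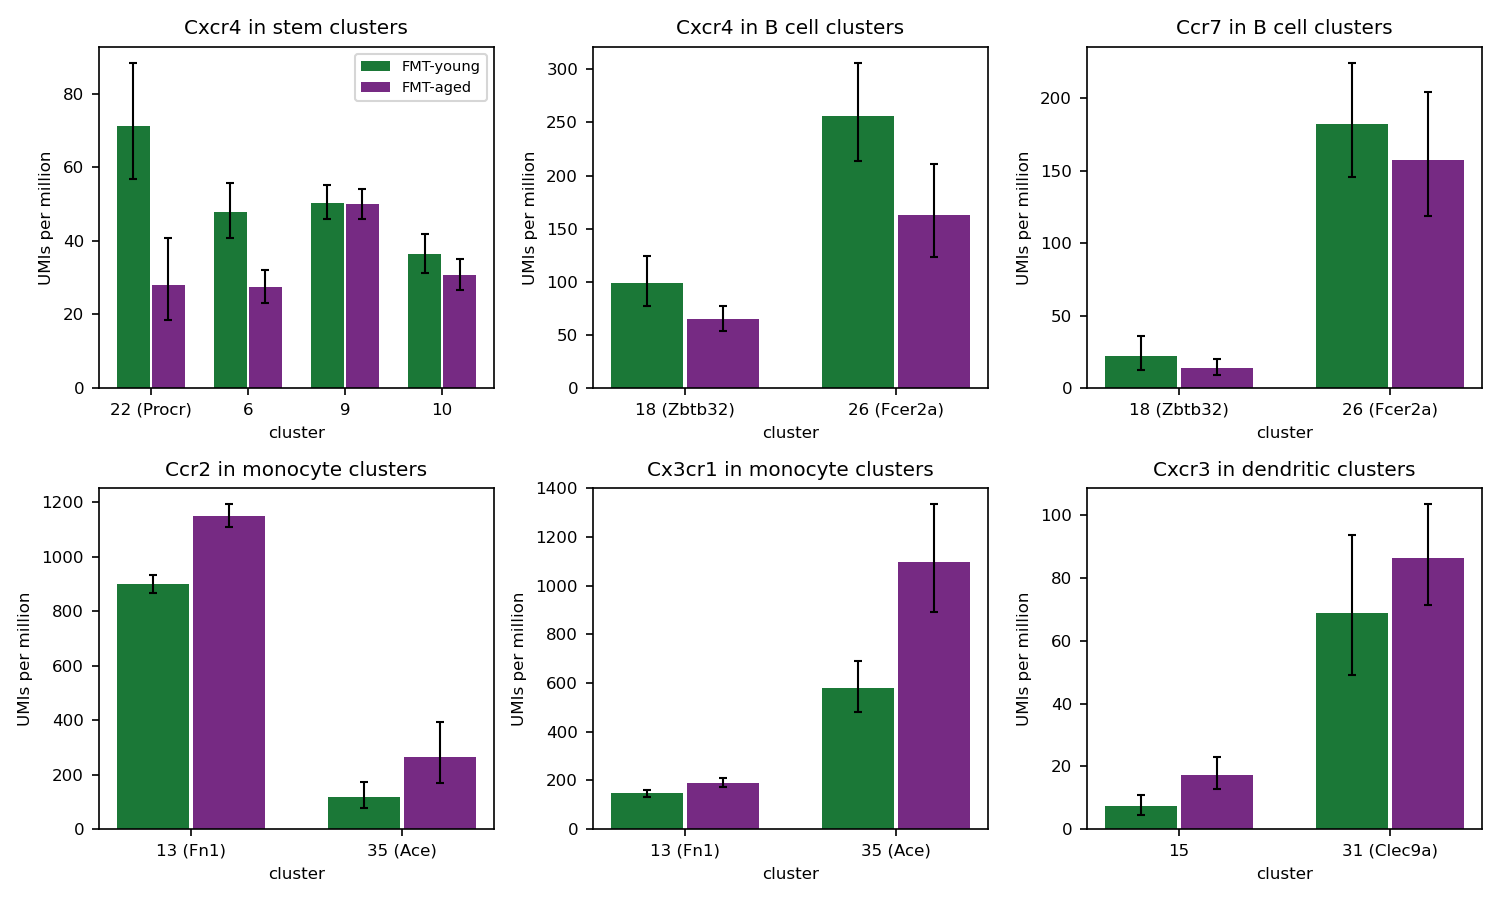
Receptor levels in FMT-young and FMT-aged within the clusters that make up a class, in CPM with 95% counting intervals. Cluster numbers are names only: 6 is the stem cluster with Mecom and Hlf, 9 that with Dntt and Flt3, 10 that with Cpa3 and Muc13, and 15 the larger dendritic cell cluster. Ccr7 lies at 182 and 157 in the Fcer2a cluster and 21.97 and 13.6 in the Zbtb32 cluster.

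Plasma cells were the only class past 1.5-fold lower in FMT-young for Cxcr4, at 32.5 and 49.0 CPM (−0.60, −0.87 to −0.32). This pair passed in 7 of 14 alternative settings, from −0.14 with at least 2000 UMIs per cell to −0.96 without immunoglobulin genes in the totals. The class joins a cluster led by Igha (213 and 356 cells) and a Kit-bearing cluster led by Fcnb, with 62 FMT-young and only 9 FMT-aged cells. In the Igha cluster alone Cxcr4 was 28.1 and 48.2 CPM (−0.78, −1.15 to −0.42). Over both clusters, immunoglobulin genes made up 43.8% of FMT-young and 56.3% of FMT-aged plasma cell UMIs. The class held 275 FMT-young and 365 FMT-aged cells. Most FMT-young plasma cells lay outside it, in left-out clusters of 897 and 341 cells with Cxcr4 at 40.7 and 59.8 CPM. A left-out FMT-aged cluster of 319 cells had 48.3 CPM. Ccr9 in plasmacytoid dendritic cells differed by less than 1.5-fold, with a ratio of 0.31 (0.07 to 0.57) and a range of 0.17 to 1.44 over its alternatives.

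In stem and multipotent progenitors, the cells that Cxcr4 holds in the marrow niche, Cxcr4 was 47.4 CPM in FMT-young and 38.7 in FMT-aged, from 906 and 971 UMIs. The ratio was 0.29 (0.16 to 0.43), short of 1.5-fold, and it ranged from 0.27 to 1.10 over 14 alternatives, past 1.5-fold in 3. The larger ratios were in the clusters led by stem cell genes. In the cluster with Procr and Mmrn1 (193 and 154 cells) Cxcr4 was 71.2 and 28.1 CPM (1.34, 0.70 to 2.03), from 83 and 27 UMIs. The gap was smaller over all cells of the class with a Procr UMI (193 and 260 cells). Among them Cxcr4 was 52.1 and 31.4 CPM from 103 and 75 UMIs, and in cells without Procr it was 46.8 and 39.4. In the cluster with Mecom and Hlf (407 and 645 cells) it was 47.9 and 27.3 CPM (0.81, 0.48 to 1.13). In the clusters with Dntt and Flt3 and with Cpa3 and Muc13 the ratios were 0.01 (−0.17 to 0.19) and 0.25 (−0.04 to 0.54). Immediate early genes were higher in FMT-young in all 4 clusters, at 20648 and 11496 CPM in the Procr cluster, 14382 and 6290 in the Mecom cluster, 5280 and 2959 in the Dntt and Flt3 cluster and 4973 and 2094 in the Cpa3 and Muc13 cluster. The difference between the cluster ratios and the part of these genes in them were not tested.

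In stem and multipotent progenitors, Ccr2 and Cx3cr1 were higher in the Dntt and Flt3 cluster than in the Procr and Mmrn1 cluster. The former was a tie in naming, with 2 leading markers each of this class and of lymphoid-primed progenitors. Ccr2 was 43.2 and 40.7 CPM in the Dntt and Flt3 cluster and 6.0 and 3.1 in the Procr and Mmrn1 cluster. Cx3cr1 was 25.8 and 24.3 CPM in the former and 3.4 and 2.1 in the latter. The Procr and Mmrn1 values rest on 7 and 3 UMIs for Ccr2 and 4 and 2 for Cx3cr1. All cells of the class with a Procr UMI had Ccr2 at 13.2 and 9.21 CPM and Cx3cr1 at 3.54 and 9.62. These Cx3cr1 values came from 7 UMIs in 5 of 193 FMT-young cells and 23 UMIs in 5 of 260 FMT-aged cells. Class ratios were 0.05 (−0.11 to 0.21) for Ccr2 and 0.14 (−0.08 to 0.37) for Cx3cr1, and ranged from −0.52 to 0.16 and from −0.36 to 0.68 over the alternatives.

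Among the 16 other chemokine receptors, Ccr1 was highest in mature neutrophils (406 and 491 CPM) and Xcr1, a receptor of type 1 dendritic cells, in conventional dendritic cells (129 and 228, −0.82). Of 18 listed ligands, 15 were found by symbol as a single gene, while Cxcl11, Ccl19 and Ccl21a were not and have no values. Among those found, Cxcl2, which acts on Cxcr2, was highest in mature neutrophils at 1482 and 719.9 CPM (1.04). Ccl2, which acts on Ccr2, was highest in monocytes at 208 and 62.7 CPM (1.73). Cxcl9, a Cxcr3 ligand, was highest in conventional dendritic cells at 50.4 and 107 CPM (−1.08). The Clec9a and Cadm1 cluster held 42 of 317 FMT-young and 108 of 345 FMT-aged cells of this class. The part of that share in the Xcr1 and Cxcl9 ratios was not tested. Cxcl12, the ligand of Cxcr4, had 2 UMIs in FMT-young and 0 in FMT-aged in monocyte progenitors, its highest class.

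In stem and multipotent progenitors, past 1.5-fold, 2.51% of 10678 genes with at least 100 UMIs were higher in FMT-young and 1.4% were lower. Of 4 ligands measured there, 1 was higher and 2 were lower past that fold, with a median log2 ratio of −0.51 beside −0.08 over all genes. Ccl2 was 6.59 and 3.15 CPM (1.07), Cxcl2 was 16.3 and 57.5 (−1.82) and Cxcl10 was 7.32 and 12.9 (−0.82). Of 31 genes of receptor signalling and desensitisation, 13 were higher and 18 lower at any size, 3 were higher past 1.5-fold and none were lower, with a median of −0.02. Those 3 were Klf2, a transcription factor of cell trafficking, at 1022 and 174 CPM (2.55), and Rgs1 and Rgs2, which switch off G proteins, at 217 and 109 CPM (0.99) and 349 and 176 CPM (0.99). Klf2 is also 1 of the 8 immediate early genes summed above. The most abundant genes of this list were Cd74, highest in conventional dendritic cells at 8981 and 13694 CPM, Klf2, highest in mature neutrophils at 2271 and 1379, and Rac2, in mature neutrophils at 1276 and 1402.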

How the data were processed

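Single-cell 3′ RNA was measured in 1 FMT-young and 1 FMT-aged library of mouse bone marrow. The matrices the authors deposited hold raw UMI counts for 31053 genes and 6794880 barcodes each (214982156 and 207642851 UMIs in all). They were made with Cell Ranger 3.1.0 per the file headers and with mm10 per the submitters' processing notes, and the counting strand is not given in the sources used here. The deposited gene and barcode lists hold names only.

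Barcodes with 1000 UMIs or more, 500 genes or more and no more than 10% mitochondrial UMIs counted as cells (11932 and 11351). The highest Scrublet-type doublet scores were removed, at 0.8% per 1000 cells (1139 and 1031 cells). The libraries were clustered jointly on 2000 variable genes without chemokine receptors and chemokines (40 principal components, 20 neighbours, Leiden resolution 2.0, leidenalg 0.10.2, igraph 0.11.9), giving 42 clusters. A class name needed at least 3 markers at 1.5 times their level elsewhere in at least 10% of cells. Levels are summed UMIs per 1000000 UMIs of a class (CPM). Ratios were called past 1.5-fold where a pair summed to 100 UMIs or more and the class held 50 cells or more in each library, with exact 95% intervals from scipy 1.17.1 and numpy 2.4.6. The calculation was tested on simulated data. The sum over cells of a class makes deep cells weigh more, and a mean over cells was 1 of 12 alternatives, with 3 more chosen after seeing the data. The 8 receptors and the gene lists were chosen with earlier results of these data known. All 8 receptors are described. The 3 most abundant genes of each list in their highest class, those past 1.5-fold in stem and multipotent progenitors, and the 3 genes most like each receptor were to be named. Of the genes so chosen, 1 is not reported here.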

Additional observations from a re-analysis of the deposited data

Results flagged for a closer look

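Receptor counts also lay in the clusters left out of the class levels because at least 90% of their cells came from 1 library. Each value below is above the limit that 3 counts set, and rests on at least 30 UMIs in 1 library, so it cannot be compared between FMT-young and FMT-aged. In FMT-young, a plasma cell cluster led by Igkv1-117 and Ighv1-19 (897 cells) had Cxcr4 at 40.7 CPM and Ccr9 at 9.39 CPM, the latter from 127 UMIs. A second plasma cell cluster led by Igha (341 cells) had Cxcr4 at 59.8 CPM, Ccr2 at 58.3 and Cx3cr1 at 20.1, and its leading genes also included the myeloid gene Chil3. A cluster of 68 FMT-young cells named mature neutrophil, but led by the monocyte gene Fn1, had Ccr2 at 355 CPM. In FMT-aged, a plasma cell cluster led by Igkv6-15 and Ighv1-26 (319 cells) had Cxcr4 at 48.3 CPM. A conventional dendritic cell cluster (113 cells) had Ccr2 at 89.6 CPM, and a plasmacytoid dendritic cell cluster (57 cells) had Ccr2 at 92.7 CPM.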

How the results depend on the processing

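No paired analysis was possible because each group is 1 library, and for the same reason no library could be left out. No ratio that was past 1.5-fold changed direction in the settings run. Pairs past 1.5-fold higher in FMT-young were 10 of 46 with at least 2000 UMIs per cell and 10 of 63 with at least 30 UMIs per pair, against 6 of 43. Pairs lower in FMT-young were 4 of 40 with at most 5% mitochondrial UMIs and 12 of 63 with at least 30 UMIs per pair, against 7 of 43. The cause was not tested, beyond the change in the number of pairs. Over 14 alternatives, 6 pairs stayed past 1.5-fold in each: Cxcr4 in T cells (0.68 to 1.02), conventional dendritic cells (0.60 to 0.98) and mature B cells (0.78 to 1.15), Ccr7 in mature B cells (0.94 to 1.40), Ccr2 in T cells (−0.79 to −1.001) and Cxcr3 in conventional dendritic cells (−1.02 to −1.47). Cxcr4 and Ccr2 in NK cells and Cxcr2 in granulocyte-monocyte progenitors passed in 13 of 14, and Ccr9 in conventional dendritic cells in 12. Of the 8 receptors, 7 had the same highest class in FMT-young and FMT-aged with at most 5% mitochondrial UMIs and with classes by marker score. T cells were highest for Cxcr6 with at least 2000 UMIs, at most 5% mitochondrial UMIs, coarser clustering or marker scores, and the Rora and Il7r cluster otherwise. In the first 3 of these settings no class of group 2 innate lymphoid cells was compared. With marker scores that class was compared and lay below T cells. Cx3cr1 was highest in macrophages with coarser clustering or marker scores. Plasmacytoid dendritic cells were not compared with mitochondrial limits of 5% and 20%, and Ccr9 was then highest in other classes. Low depth limits the Rora and Il7r cluster, which has 67 and 74 cells.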
